A study of Oryza sativa Indica Group with 2 samples.

Results

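The loci of rice chromosome 12 were compared between chilled leaves of 2 indica breeding lines. Members were all loci of the authors' table whose identifier begins with LOC_Os12g, which gave 202 of the 3946 loci in the table. Where a locus had several coding-sequence models, the model with the largest mean level stands for it. The rule picks loci by identifier alone, but the authors' table holds only models whose adjusted p for the difference was under 0.05. Every member had thus already passed that limit.

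One line is labelled cold-tolerant and the other cold-sensitive, their IRGA names share a stem, and the labels give no added gene or agent in either. Both were grown to the stage of 3 leaves, at about 20 days, and then held at 10 °C for 6 h under light of 40 µmol m-2 s-1. Each line gave 1 library of poly-A RNA from the leaves of 9 plants, and no unchilled plants are among the samples. A difference is therefore one between chilled leaves of the lines and not a response to cold. The authors' table does not say which line is the numerator of its fold change, so library A stands here for its numerator and library B for its denominator. With 1 library per line there is no replicate check, no spread between plants and no test of any difference.

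The tip of the short arm of chromosome 12, where locus numbers begin, shares a recent duplicated segment with the tip of chromosome 11, in which many gene pairs are nearly identical. The chromosome also carries most of the rice genes for the small subunit of Rubisco, the enzyme that fixes carbon dioxide in the chloroplast. The small subunit is encoded in the nucleus by a gene family and joins the large subunit made inside the chloroplast.

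Reads per locus were recovered from the authors' log2 values, with library sizes of 12846997 for A and 12152372 for B. Levels are given in RPM, the reads of a locus per 1000000 of these sizes, and differences as the log2 ratio of RPM in A over B, so that a positive ratio means a higher level in A. Ranges in brackets are 95% exact intervals, Clopper-Pearson for a ratio and Poisson for a level, and cover counting error only. The 202 loci had 10 to 117136 reads over both libraries, with a median of 847.5, against 614 for loci of the other 11 chromosomes. Models enter the table when their adjusted p is under 0.05, and of the 67393 models that the authors' p-values imply were tested, 8.61% are in it. Loci of few reads are thus present only where their ratio is large. No gene lengths are given, so levels were not compared between loci.

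More chromosome 12 loci were higher in library A than in library B. Of the 202, 114 (56.4%) were higher in A and 88 (43.6%) in B, while 41.4% of all loci of the table were higher in A and 58.6% in B. Among the other 11 chromosomes the share higher in A ran between 33.2% and 51.3%, the top value being that of chromosome 11. The median log2 ratio of the 199 chromosome 12 loci read in both libraries was 0.34, against -0.33 for the rest of the table, and chromosomes 11 and 12 were the only ones with a positive median. Ratios near 0 miss the authors' limit, the smallest on chromosome 12 being 0.16 towards A and -0.11 towards B. The sign of the median thus largely follows which direction has more loci and is not a separate measure of level. The scaling matters for such counts. The median log2 ratio of all models was -0.30, and with ratios taken relative to it 135 chromosome 12 loci (66.8%) were higher in A and 67 in B. Under the same centring 49.8% of all loci of the table were higher in A and 50.2% in B, and the other chromosomes ran between 44.1% and 56.7%.

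The share of loci with large differences lay within the range of the other chromosomes. A ratio of at least 1 log2 in either direction was found at 47 of the 199 loci (23.6%), against 25.3% of all loci and 18.2% to 34.0% on the other chromosomes. Of these, 20 were higher in A, or 10.1% against 8.48% in the table, and 27 were higher in B, or 13.6% against 16.8%. A ratio of at least 2 log2 was reached by 5 loci towards A, where 2.76% of all loci reached it, and by 6 towards B, where 4.63% did. Relative to the median of all models 46 loci passed 1 log2, while 22.9% of all loci did. Of them, 31 were higher in A, or 15.6% against 12.4% of all loci, and 15 in B, or 7.54% against 10.6%. Under that centring the share in B lay below the 8.06% to 15.5% of the other chromosomes, and the share in A within their 6.12% to 20.9%. Loci past 1 log2 had few reads, with a median of 66.5 for those higher in A and 136 for those higher in B, whereas the 152 loci under 1 log2 had a median of 1193.

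Many of the loci higher in A lay in a narrow range of ratios. The middle portion between the quartiles of the 113 loci higher in A and read in both libraries ran from 0.40 to 0.75, with a median of 0.45. For the 86 loci higher in B the quartiles were -1.10 and -0.32, with a median of -0.67. A log2 ratio of 0.30 to 0.55, a range chosen after the values had been seen, held 65 of the 199 loci (32.7%), against 18.5% of all loci and 14.3% to 23.4% on the other chromosomes. These 65 loci had 322 to 5362 reads in all, with a median of 1175. For example, LOC_Os12g30540 had 820 reads in A and 583 in B, LOC_Os12g27270 had 820 and 586, and LOC_Os12g13920 had 818 and 580. LOC_Os12g26080, with 828 and 576 reads, and LOC_Os12g31600, with 846 and 595, were of the same kind. These examples were picked for their like read numbers after the values had been seen. The 65 loci as a set were not alike in level, as their range of reads shows.

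Read numbers were next compared between loci. Both read numbers lay within 1% of those of some other locus of the table at 90 of the 202 loci (44.6%). This was so at 36.4% of all loci and at 33.0% to 45.7% on the other chromosomes, so chromosome 12 lay within their range. Partners were found on all 12 chromosomes, and 79 of the 90 had none on chromosome 12 itself. Of the 65 loci with ratios of 0.30 to 0.55, 43 (66.2%) had such a partner. The share for loci of the whole table in that range was not computed, and loci crowded in ratio and reads match more readily. Of the 90 loci, 60 were higher in A and 30 in B. Among the 1435 such loci of the whole table, 746 were higher in A and 689 in B. Among the 112 chromosome 12 loci without a partner, 54 were higher in A and 58 in B, with a median log2 ratio of -0.14. Partners are defined from the same read numbers that give the ratio, so their removal takes out crowded ratios such as 0.30 to 0.55. In the whole table the share higher in A also fell, from 41.4% to 35.4%, without matching loci. On chromosome 12 it was then 48.2%, above the 28.6% to 42.6% of the other chromosomes treated alike. Whether reads were counted at several copies was not tested.

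**Figure D1:**
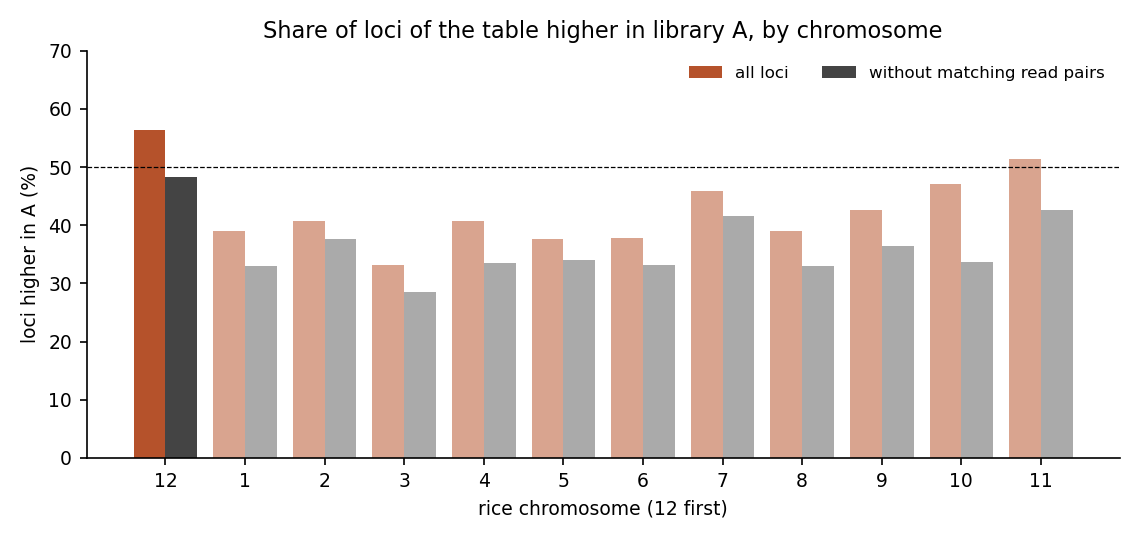
Share of loci of the table higher in library A (percent, vertical axis) for chromosome 12, at the left, and the other 11 chromosomes. Coloured bars count all loci and grey or black bars those without a matching read pair; chromosome 12 stands at 56.4% with all loci and at 48.2% without matching pairs, and the dashed line marks 50%.

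**Figure D2:**
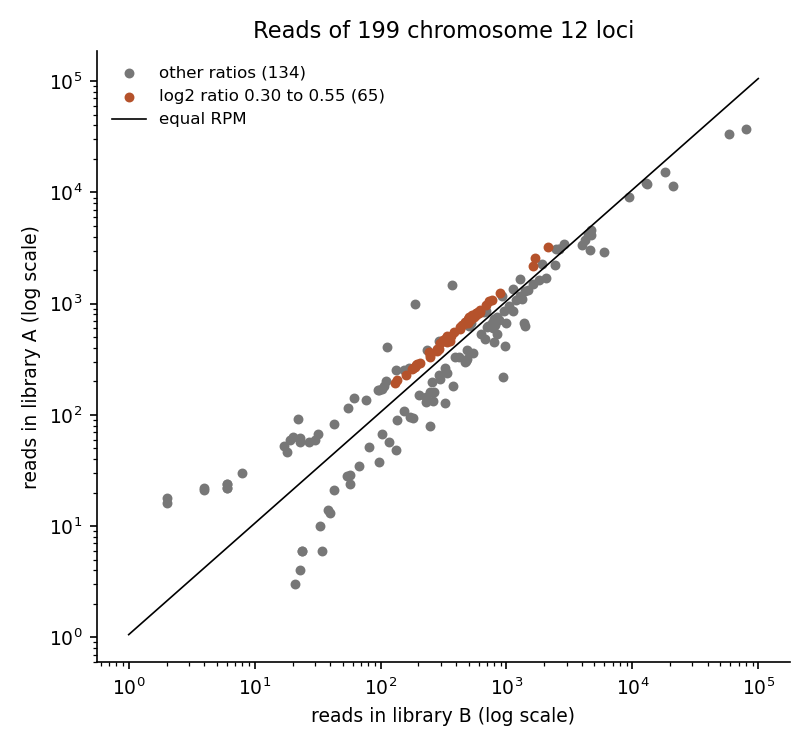
Reads in library A (vertical, log scale) against library B (horizontal, log scale) for the 199 chromosome 12 loci read in both libraries. Coloured points are the 65 loci with a log2 ratio of 0.30 to 0.55, which crowd just above the line of equal RPM around a median of 1175 reads in all.

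Direction changed along the chromosome. Locus numbers give the order of loci and not base pairs, and they were divided into 9 stretches of 5000. In the first stretch, at the tip of the short arm, 12 of 42 loci were higher in A and 30 in B, with a median log2 ratio of -0.46. The next stretch, from 5000 to 10000, held 7 loci higher in A and 12 higher in B. From 10000 to 15000 the counts turned to 13 and 6, and from 15000 to 20000 they were 12 and 8. The stretch from 20000 to 25000 had only 9 loci in the table, 4 higher in A and 5 in B.

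The strongest lean towards library A among the 9 stretches lay between locus numbers 25000 and 35000. Between locus numbers 25000 and 30000, 16 of 19 loci were higher in A, and between 30000 and 35000, 18 of 21. In these stretches together 34 of 40 loci (85.0%) were higher in A, against 41.4% of all loci of the table. Their median log2 ratio was 0.43, and only 6 of them were higher in A by 1 log2 or more. This join was not one of the planned stretches, and it takes those with the highest shares higher in A. Of the 40 loci, 24 had ratios of 0.30 to 0.55 and 26 had a partner with matching reads. Among the 14 without a partner, 11 were higher in A and 3 in B. Between 35000 and 40000 the counts were 19 and 9, and between 40000 and 45000 they were 13 and 12.

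Below locus number 10000, 19 of 61 loci were higher in A and 42 in B (68.9%), and among the 36 of them without a partner 9 were higher in A and 27 in B. Of all loci of the table, 58.6% were higher in B. Relative to the median of all models the 61 loci split into 27 higher in A and 34 in B, whereas the 40 loci between 25000 and 35000 split into 35 and 5. Under the authors' scaling, differences past 1 log2 were also placed unevenly. The part below 10000 has 61 of the 202 loci. It held 14 of the 27 loci at least 1 log2 higher in B and 2 of the 20 that were so in A. Among all loci read in both libraries, 16.8% were at least 1 log2 higher in B and 8.48% in A. Centred on the median of all models, chromosome 12 had 15 such loci in B and 31 in A. Their places along the chromosome were not counted under that centring.

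**Figure D3:**
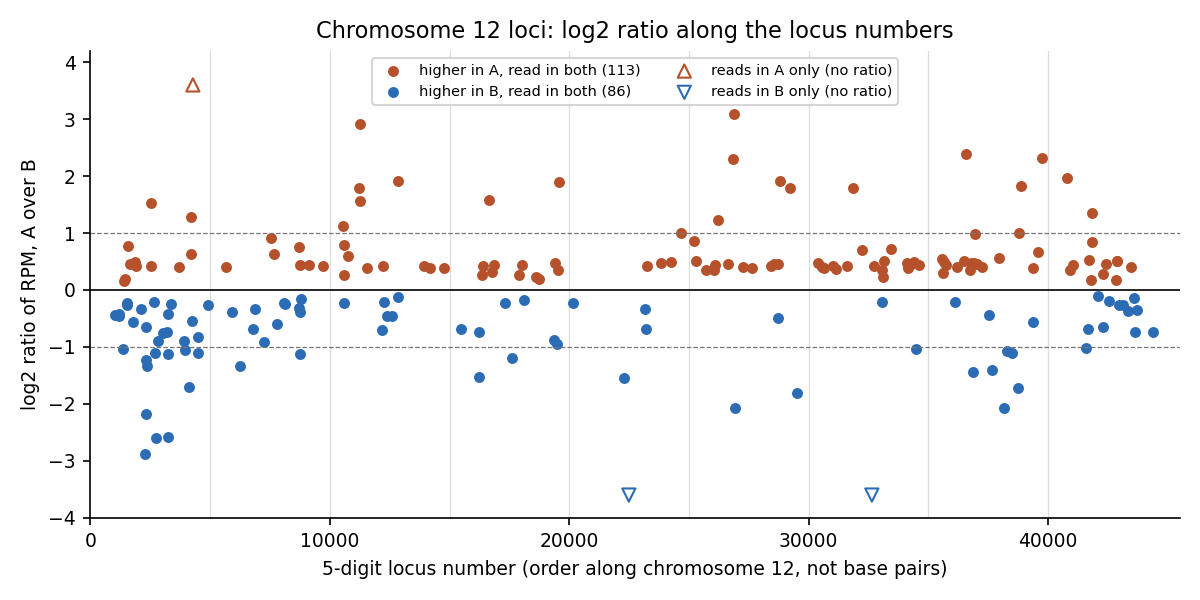
Log2 ratio of RPM, A over B (vertical), of each chromosome 12 locus by its locus number (horizontal), with dashed lines at 1 log2 in either direction and thin lines every 5000 numbers. Open triangles at the edges are the 3 loci read in 1 library only, which have no ratio; points below 0 prevail at the left, and a band of points near 0.4 fills the middle and right.

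**Figure D4:**
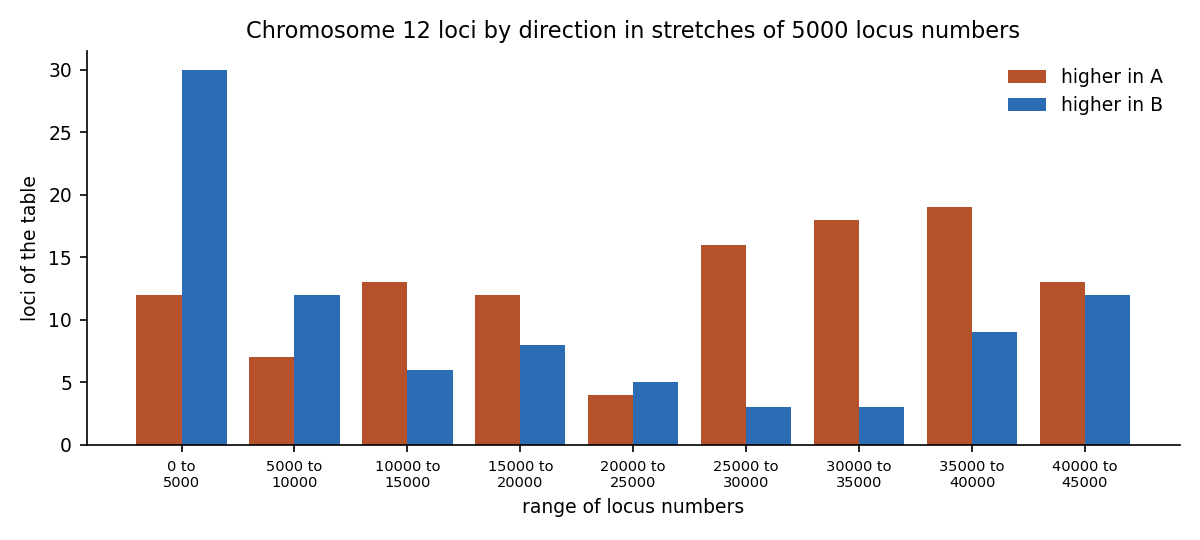
Number of chromosome 12 loci of the table higher in library A and higher in library B (vertical) in 9 stretches of 5000 locus numbers (horizontal). In the stretch at the left 12 loci are higher in A and 30 in B, and between 30000 and 35000 18 are higher in A and 3 in B.

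Loci next to each other in the table formed 75 runs of 1 direction, 29 of them of a single locus. Loci that missed the authors' limit may lie between them, with direction unknown, so a run is not an unbroken block of genes. The longest run higher in A had 13 loci, between LOC_Os12g23250 and LOC_Os12g26875, with ratios of 0.34 to 3.09 on the log2 scale and a median of 0.50. Among its members, 8 had ratios of 0.30 to 0.55 and 8 had a partner with matching reads. The end of the run was different in size. LOC_Os12g26850 had 984 reads in A and 188 in B, or 76.6 RPM and 15.5 RPM, a log2 ratio of 2.31 (2.08 to 2.54). Its neighbour LOC_Os12g26875 had 18 and 2 reads, a ratio of 3.09 (1.03 to 6.24). Another member, LOC_Os12g26204, had 57 and 23 reads, a ratio of 1.23 (0.51 to 2.00), and LOC_Os12g24680, with 116 and 55, lay just under the threshold at 0.996.

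The longest run higher in B had 10 loci, between LOC_Os12g02660 and LOC_Os12g03350, with a median log2 ratio of -0.82. Under centring on all models its first and last locus turned to a positive sign and the longest run higher in B had 8 loci. Its largest differences rested on few reads. LOC_Os12g02720 had 4 reads in A and 23 in B, and LOC_Os12g03240 had 6 and 34, a log2 ratio of -2.58. LOC_Os12g03230 was better covered, with 180 and 373 reads and a ratio of -1.13 (-1.40 to -0.87). LOC_Os12g03040 had 51 and 81 reads, a ratio of -0.75 (-1.28 to -0.22), and LOC_Os12g03200 had 306 and 481.

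A second run higher in B, of 6 loci between LOC_Os12g02094 and LOC_Os12g02370, lay shortly before it, with a median of -1.28. It included LTP (LOC_Os12g02320), for a lipid transfer protein, one of the small secreted proteins that carry lipids outside the cell and are tied to the cuticle and to defence. LTP had 670 reads in A and 995 in B, or 52.2 RPM and 81.9 RPM, a log2 ratio of -0.65 (-0.79 to -0.51). The adjoining LOC_Os12g02330 had 218 and 932 reads, or 17.0 RPM and 76.7 RPM. Its ratio of -2.18 (-2.40 to -1.96) was the largest towards B among chromosome 12 loci with at least 50 reads in the library where they were higher. LOC_Os12g02340 followed with 631 and 1404 reads, a ratio of -1.23 (-1.37 to -1.10), and LOC_Os12g02370 with 413 and 981, a ratio of -1.33 (-1.50 to -1.16). On the other side of LTP, LOC_Os12g02300 had 3 and 21 reads, a ratio of -2.89 (-5.28 to -1.14). Of the 6 loci in the run, 4 thus differed by at least 1 log2, and 3 did relative to the median of all models. Whether these neighbours share reads through like sequence was not tested.

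Partners on chromosome 11 were also counted. In the first stretch of 5000 locus numbers, 3 of 42 loci had a partner on chromosome 11 within 1%, and 19 of all 202 did. Counted alike, the other chromosomes, 12 included, held partners of 4 to 25 of the 202 loci, so chromosome 11 lay within their range. The partner of 1 of the 3 lay below locus number 5000 of chromosome 11, at its tip. This locus, LOC_Os12g01030, had exactly the read numbers of LOC_Os11g01040, with 227 reads in A and 292 in B. Exactly equal numbers were found at 20 chromosome 12 loci, and the same share over all loci was not counted. Only 2 of the 20 had at least 100 reads in both libraries. These were LOC_Os12g01030 and LOC_Os12g19530, the latter with 452 and 335 reads and a partner on chromosome 5.

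The genes below were named from field knowledge of their locus numbers. The 15 pairs of locus and name were looked up in RefSeq's gene table of assembly ASM3414082v1, a japonica genome, in which all the names were found on chromosome 12 in the order of the locus numbers. Their places differed by at most 3.79% of the chromosome's length. Such a check cannot tell neighbouring genes apart, and LOC_Os12g19381 and LOC_Os12g19470 share 1 name there. The choice of names was made after values had been seen, so their directions are a description of these genes alone.

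The 3 Rubisco small subunit loci in the table were higher in library B under each scaling. LOC_Os12g17600 had 37073 reads in A and 80063 in B, which is 2886 RPM and 6588 RPM, and a log2 ratio of -1.19 (-1.21 to -1.17). LOC_Os12g19381 had 33555 and 58678 reads, or 2612 RPM and 4829 RPM, a ratio of -0.89 (-0.91 to -0.87). LOC_Os12g19470 had 11513 and 20952 reads, or 896 RPM and 1724 RPM, a ratio of -0.94 (-0.98 to -0.91). The intervals of the last 2 loci do not reach that of LOC_Os12g17600, so counting error alone does not cover the gap between their ratios. Relative to the median of all models LOC_Os12g17600 was at -0.89, short of 1 log2. Copies of the family are alike, and how reads matching more than 1 copy were counted is not stated. The fourth listed small subunit locus, LOC_Os12g19394, is not in the table and was not analysed here.

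These 3 loci carried a large part of the chromosome's reads. They took 31.3% of all reads of chromosome 12 loci of the table in A and 46.9% in B. Summed over the 202 loci the level was 20460 RPM in A against 28028 RPM in B, or a log2 ratio of -0.45, although more loci were higher in A. Without the 3 Rubisco loci the sums were 14066 RPM in A and 14887 RPM in B, a ratio of -0.08. The sum over the whole table had a ratio of -0.19. Relative to the median of all models the 3 ratios were -0.15 for chromosome 12, 0.22 for it without Rubisco and 0.11 for the whole table, so the direction of the sum without Rubisco rests on the scaling. Rubisco genes mark green leaf, the labelled tissue, and were read in both libraries.

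The models of a Rubisco locus gave like ratios. The second model of LOC_Os12g17600 had 23043 reads in A against 50959 in B, or a log2 ratio of -1.23, close to the -1.19 of the first. For LOC_Os12g19470 the ratios were -0.92 and -0.94. On the whole chromosome 45 loci had several models, and at all 45 the models had 1 direction. At 11 of them the read numbers did not differ between models. Models of 1 locus can count the same reads, and each had passed the authors' limit, so like directions are not separate evidence. Where the models of a locus differed, their ratios spanned a median of 0.041 and at most 0.28.

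The other 4 named chloroplast genes were also higher in B, by smaller amounts. TRXM (LOC_Os12g08730), for an m-type thioredoxin that passes reducing power to chloroplast enzymes, had 262 RPM in A against 326 RPM in B, or a log2 ratio of -0.32 (-0.38 to -0.25). PSY2 (LOC_Os12g43130), for phytoene synthase, which makes the first carotenoid, had 322 RPM and 386 RPM, a ratio of -0.26. GWD3 (LOC_Os12g20150), for an enzyme that adds phosphate to starch as it is broken down, had 84.7 RPM and 98.7 RPM, a ratio of -0.22. CLPC2 (LOC_Os12g12850), for the chaperone part of the stromal Clp protease, had 711 RPM and 775 RPM, a ratio of -0.13. PSY2 turned to 0.043, GWD3 to 0.084 and CLPC2 to 0.18 relative to the median of all models, and TRXM to -0.01, so the directions of PSY2, GWD3 and CLPC2 rest on the authors' scaling and TRXM had a difference near 0 without it.

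The named genes of metabolism and signalling were higher in B except BSL2. RR10 (LOC_Os12g04500), a response regulator of type A that dampens cytokinin signalling, had 675 reads in A and 1371 in B, or 52.5 RPM and 112.8 RPM. Its log2 ratio of -1.10 (-1.24 to -0.97) was the only one past 1 in this group, and it was -0.80 relative to the median of all models. Its close neighbour CPD2 (LOC_Os12g04480), for a cytochrome P450 of brassinosteroid synthesis, had 160 and 267 reads, a ratio of -0.82 (-1.11 to -0.53). ADF11 (LOC_Os12g43340), an actin-depolymerising factor, had 717 and 876 reads, a ratio of -0.37. The cysteine synthase gene rcs1 (LOC_Os12g42980) had 617 and 704, a ratio of -0.27, which turned to 0.033 relative to the median of all models. BSL2 (LOC_Os12g42310), for a protein phosphatase with kelch repeats, had 843 and 659, a ratio of 0.28 (0.13 to 0.42).

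Of the named genes of defence and metal binding, LTP is given above and the others differed more. PBZ1 (LOC_Os12g36880), for a pathogenesis-related protein of family 10 that is induced by probenazole and blast fungus, had 38 reads in A and 98 in B, or 2.96 RPM and 8.06 RPM. Its log2 ratio was -1.45 (-2.03 to -0.89). The metallothionein locus LOC_Os12g38270, for a small cysteine-rich protein that binds metal ions, had 132 and 263 reads, or 10.3 RPM and 21.6 RPM, a ratio of -1.07 (-1.39 to -0.77), or -0.77 relative to the median of all models. It lies in a cluster of like genes whose members may share reads. It also stands in a run of 4 loci higher in B, each by at least 1 log2, between LOC_Os12g38150 and LOC_Os12g38750, of which 2 passed 1 log2 relative to that median. At the end of that run LOC_Os12g38750 had 79 and 247 reads, a ratio of -1.72 (-2.11 to -1.35).

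In all, 14 of the 15 named genes were higher in B, 4 of them by at least 1 log2, and BSL2 in A, with a median log2 ratio of -0.65. Relative to the median of all models 5 were higher in A and 10 in B, and only PBZ1, at -1.14, stayed past 1 log2. Of all loci of the table, 58.6% were higher in B, and their median ratio was -0.31. Of those read in both libraries, 16.8% were at least 1 log2 higher in B, or 10.6% relative to the median of all models. Of 35 loci put on lists of photosynthesis, redox, signalling, transcription factor and defence genes, 11 were in the table. It holds 8.61% of the models tested, but that is a share of models and not of loci. Loci of many reads also enter it at smaller ratios, so the shares cannot be compared. All 11 were higher in B with a median of -0.89, but the lists were drawn up with results of these data known. Some of these 11 are the named genes above. Among those for which no name was found in the reference, LOC_Os12g23200 had 3019 reads in A against 4608 in B, for a ratio of -0.69 (-0.76 to -0.62), and LOC_Os12g08770 had 1686 and 2073, a ratio of -0.38. None of the 3 listed redox loci was in the table.

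**Figure D5:**
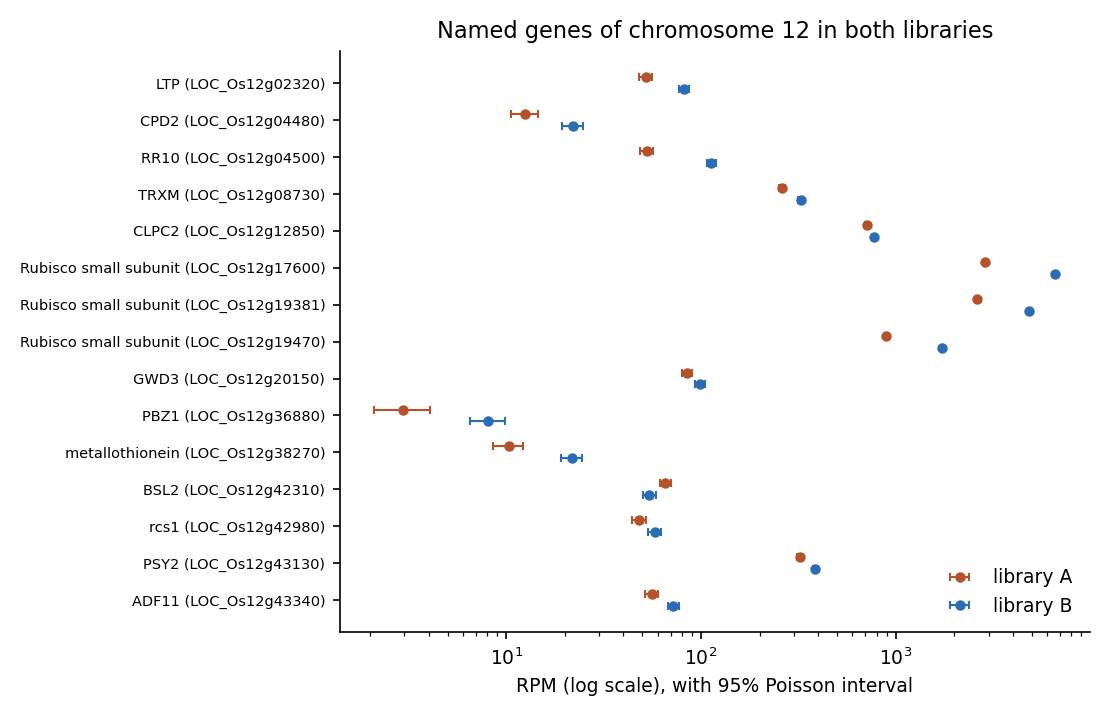
Levels in RPM (horizontal, log scale) of the 15 named genes of chromosome 12, in the order of their locus numbers, in library A (upper point) and library B (lower point). Bars are 95% Poisson intervals; library B lies to the right of library A at 14 genes and to the left at BSL2.

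Under the authors' scaling the loci with the most reads were higher in B. Of the 10 loci with the most reads, the 3 Rubisco loci among them, all were higher in B, as were 58.6% of all loci. Of the 10, 2 passed 1 log2, as did 16.8% of all loci read in both libraries towards B. Relative to the median of all models 5 of the 10 were higher in A and 5 in B, and none passed 1 log2. LOC_Os12g23180 had 15256 reads in A against 18237 in B, or a log2 ratio of -0.34. LOC_Os12g10580 had 11883 and 13126, a ratio of -0.22, and LOC_Os12g08810 had 12113 and 12831, a ratio of -0.16. The 5 that turned positive were these last 2, LOC_Os12g42090 at -0.11, CLPC2 and PSY2. Beside LOC_Os12g17600, LOC_Os12g08760 passed 1 log2, with 2903 and 5987 reads, or 226 RPM and 493 RPM, and a ratio of -1.12 (-1.19 to -1.06), or -0.82 relative to that median. Its neighbour LOC_Os12g08740 had 229 reads in A and 160 in B and was higher in A.

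Towards library A the largest ratios with good coverage were at loci given here by identifier only. After LOC_Os12g26850, given above, LOC_Os12g19580 had 1466 reads in A and 372 in B, or 114.1 RPM and 30.6 RPM. Its log2 ratio was 1.90 (1.73 to 2.07). It is a near neighbour of the Rubisco loci, which were higher in B. LOC_Os12g31870 had 411 and 112 reads, or 32.0 RPM and 9.22 RPM, a ratio of 1.80 (1.49 to 2.11). LOC_Os12g40790 had 91 and 22 reads, a ratio of 1.97 (1.28 to 2.71). LOC_Os12g10570, with 143 and 62 reads, was the tenth in this order, at 1.13 (0.69 to 1.58), and the 5 between them had 52 to 63 reads in A and 17 to 23 in B.

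Towards library B, beside the loci already given, LOC_Os12g22284 had 48 reads in A against 133 in B, or a log2 ratio of -1.55 (-2.06 to -1.06). LOC_Os12g37650 had 129 and 325, a ratio of -1.41 (-1.72 to -1.11), and LOC_Os12g06260 had 24 and 57, a ratio of -1.33 (-2.08 to -0.62). The intervals of such loci overlap, so their order by ratio is not resolved by the counts.

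Reads in 1 library only were rare and weak on chromosome 12. LOC_Os12g04280 had 11 reads in A and 0 in B, or 0.856 RPM (0.427 to 1.53) in A. Set against 3 reads in B, which are 0.247 RPM, the lower limit made it at least 1.73-fold higher. In B alone, LOC_Os12g22489 had 10 reads and LOC_Os12g32640 had 13, or 0.823 RPM and 1.07 RPM. Set against 3 reads in A, which are 0.234 RPM, they were at least 1.68-fold and at least 2.43-fold higher in B. These 3 loci compare with 1.37% of all loci for reads in A alone and 1.17% for reads in B alone, and they lay far apart from each other.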

How the data were processed

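Poly-A RNA of leaves was sequenced in 2 libraries, as single-end reads of 100 bp from inserts of about 500 bp per the labels' protocols. The submitters' processing notes name Bowtie 0.12.7 and edgeR; the sources used here do not give build, annotation release, strand or the handling of multiply matching reads. Per the file headers, the authors deposited a mean log2 share of reads and a log2 fold change per coding-sequence model. The authors also deposited p-values, raw and adjusted, the largest adjusted one 0.0499, so models that missed the limit are not in the table.

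Each library's share was solved from both log2 columns, and 100% of values were whole reads within 1e-06 after scaling. This step and the intervals were checked on simulated data. One model per locus was kept. No test was run, since each genotype has 1 library. A count of 0 was given a floor of 3 reads. Named loci were those on the lists, the 10 with most reads, the 10 with the largest ratio each way with at least 50 reads where higher, those read in 1 library, and the members of the longest run each way that the text gives. Other loci, and the 15 names, were chosen after their values were seen. The members and lists were chosen with earlier results of these data known. Alternatives were other scalings, all models, a level filter, removal of matching pairs, fold thresholds, a pseudocount of 1 RPM, bin widths and match tolerances. Python 3.11.15, pandas 2.3.3 and scipy 1.17.1 were used.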

Additional observations from a re-analysis of the deposited data

How the results depend on the processing

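The counts of loci higher in A (114) and in B (88) stayed within 1.5 times under centring on all models and the table's own totals. They were 68 and 50 at or above the median level, where fewer loci were counted. They were 54 and 58 without matching read pairs, as 60 of the 90 loci removed were higher in A. B had 137 when every model counted. Without matching pairs B thus led. The median log2 ratio of 0.34 was 0.65 centred, 0.54 with the table's totals, 0.19 over every model and -0.14 without matching pairs, where the cause was not tested. Loci at least 1 log2 higher in A (20) and B (27) became 31 and 15 centred, 2 and 6 at or above the median level, and 5 and 6 at a threshold of 2 log2. The table's totals gave 16 in B, and both a pseudocount of 1 RPM and the removal of matching pairs gave 11 in A. Loci read in A only (1) became 3 with up to 3 reads allowed in B. Of 9 stretches 6 had more loci higher in A; of the 18 narrower ones of 2500 it was 11. Matching pairs were 20 for exactly equal read numbers and 143 within 2%. Centring reversed 9 named loci: LOC_Os12g10580 to 0.080, LOC_Os12g08810 to 0.14, LOC_Os12g42090 to 0.19, LOC_Os12g02660 to 0.090, LOC_Os12g03350 to 0.059, CLPC2 to 0.18, PSY2 to 0.043, GWD3 to 0.084 and rcs1 to 0.033. The sum of reads without Rubisco, at -0.08, reversed to 0.22 centred and 0.12 with the table's totals. These scalings of sums and counts of named loci were chosen after seeing the data. Named genes higher in B were 10 of 15 centred and 13 with the table's totals, and 1 of 4 stayed past 1 log2 under both. The table's totals reversed 3 named loci, LOC_Os12g08810 to 0.037, CLPC2 to 0.075 and LOC_Os12g42090 to 0.091. A pseudocount of 1 RPM left all 60 named loci within their intervals. No paired analysis was possible because there is a single sample of either line. Few reads limit the loci past 1 log2, a single library per line limits every value, and what the authors' threshold left out was not analysed here.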

Other observations

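Some neighbours on chromosome 12 had like values in both libraries, and these were picked after the values had been seen. LOC_Os12g42876 had 3222 reads in A and 2140 in B and LOC_Os12g42884 had 2556 and 1693, each with a log2 ratio of 0.51. LOC_Os12g01390 had 3096 and 2618 reads and LOC_Os12g01449 had 3121 and 2594, with ratios of 0.16 and 0.19 and read numbers within 1% of each other. LOC_Os12g11230, LOC_Os12g11240 and LOC_Os12g11250, which follow each other, had 22, 59 and 16 reads in A and 6, 19 and 2 in B, so that all 3 were higher in A by more than 1 log2. LOC_Os12g41820 and LOC_Os12g41830 were higher in A as well, with 252 and 133 reads at the one and 62 and 23 at the other. Whether such neighbours share reads was not tested.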
